A study of Mus musculus with 34 samples.

Results

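The 8 mouse heart sections richest in fat cell transcripts were set against the 8 poorest, out of 34 arrays, each with the heart RNA of 1 mouse. The arrays were chosen by measured values: they were ranked by a fat score, the mean over Adipoq, Plin1, Cidec, Cfd and Retn of each gene's log2 ratio minus its median over all 34 arrays. Before ranking, 5 arrays were set aside because the same kind of score over the atrial genes Myl7, Myl4, Sln, Bmp10, Dkk3, Gja5 and Mybphl was under -1.5. Of the 29 arrays that remained, the 8 highest were called fat-rich and the 8 lowest fat-poor, and 13 lay in between.

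The mice were female C57BL/6, bought at 5 to 6 weeks of age. A single volume was instilled into the trachea, holding 162 µg of Printex 90 (carbon black nanoparticles) in exposed mice and 0 µg in vehicle controls. In both, the fluid was 0.9% saline with 10% cell-free lung lavage fluid of C57BL/6 mice. Hearts were taken on day 1, 3 or 28, with 6, 5 and 5 carbon black arrays and 6 control arrays at each time. Heart RNA was labelled with Cy5 and hybridised against a pooled mouse reference RNA in Cy3, so every value is a log2 ratio of heart to reference. The labels describe the tissue as a random cut through the heart that holds both ventricles, and they say nothing of fat or of how tissue around the heart was trimmed.

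White adipocytes store triglyceride in one large droplet coated by perilipin 1, make part of that fat from glucose by de novo lipogenesis, and secrete hormones such as adiponectin and leptin. Brown adipocytes hold many small droplets and burn fat for heat through uncoupling protein 1. In mice, fat lies around the base of the heart and the great vessels, and part of the fat around the aorta is brown. Cardiac muscle itself takes up and burns fatty acids, so it shares many lipid genes with fat.

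The 5 score genes chose the groups, and their values are given as a description. The fat score ran between 0.86 and 1.71 on fat-rich arrays, with a mean of 1.18 ± 0.29 (SD, n = 8), and between -4.58 and -0.57 on fat-poor arrays, with a mean of -1.61 ± 1.32 (SD, n = 8). The array just inside the fat-rich group scored 0.86 and the one just outside it 0.77. The array just inside the fat-poor group scored -0.57 and the one just outside it -0.48. Neither edge of the groups had a wide gap.

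**Figure D1:**
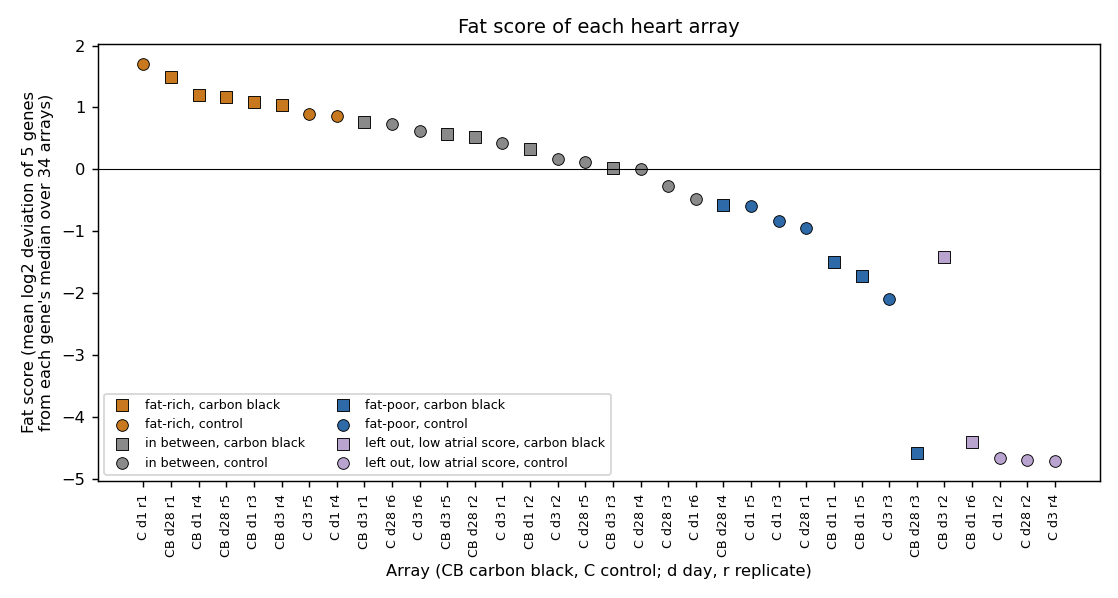
Fat score of each of the 34 arrays (y axis, mean log2 deviation of 5 genes), ordered by class and then by score, with squares for carbon black and circles for control mice. The fat-rich arrays sit between 0.86 and 1.71 and the fat-poor arrays between -4.58 and -0.57, where carbon black day 28 replicate 3 lies far below the rest.

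Plin1, which encodes perilipin 1, the coat of the fat droplet, had log2 ratios between 5.96 and 7.63 (median 6.43) on fat-rich arrays and between 0.03 and 3.99 (median 2.99) on fat-poor arrays. Adipoq, which encodes adiponectin, lay between 5.45 and 6.00 (median 5.83) on fat-rich arrays and between -0.23 and 5.06 (median 3.79) on fat-poor arrays. Fat-poor thus means less, not none: the Adipoq spot was well above background on 7 of the 8 fat-poor arrays. Cfd, the complement factor adipsin, was the 1 score gene of 5 whose groups overlapped.

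Carbon black day 28 replicate 3 stood apart at -4.58, with the next lowest array at -2.10. Its Adipoq, Plin1 and Car3 log2 ratios were -0.23, 0.03 and -0.01. Where neither channel rises above background, the deposited ratio lies near 0 and is a floor, not a level equal to the reference. Plin1 and Car3 were well above background in the heart channel on all 8 fat-poor arrays, so their values are not such floors. The 5 arrays set aside for low atrial transcripts had a median fat score of -4.67. Without carbon black day 28 replicate 3, the counts of higher and lower genes defined below were 114 and 13, with 111 and 13 genes shared, against 114 and 14 with it. Genes without overlap stay so when an array is left out, so this sharing was largely fixed in advance.

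Of the heart genes, 3 that were chosen as fixed markers overlapped between the groups, while the ventricular genes given further on had lower means in fat-rich arrays. Myh6, the atrial and adult ventricular myosin heavy chain of the mouse, averaged 4.13 ± 0.59 on fat-rich and 4.07 ± 0.81 on fat-poor arrays (SD, n = 8 each). Actc1, cardiac actin, averaged 4.67 ± 0.22 on fat-rich and 4.63 ± 0.73 on fat-poor arrays. Nppa, atrial natriuretic peptide, lay between 4.31 and 5.47 on fat-rich and between 4.22 and 5.19 on fat-poor arrays. The differences of 0.07, 0.03 and 0.15 were smaller than the SD within either group. The share of spots well above background was 47.0 to 65.2% on fat-rich and 42.8 to 66.6% on fat-poor arrays. In whole tissue, more fat cells and more RNA of these genes per fat cell cannot be told apart.

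Promoter sequences are shown for 4 fat genes described below, all without overlap between the groups. They are the 200 bases before the RefSeq gene start in GRCm38.p6, all on the plus strand, with 1 kind of motif in capitals: the CCAAT box of Adipoq (chr16:23146336-23146535), the C/EBP palindrome TTGCGCAA of Lep (chr6:29060021-29060220), the TATAAA of Cebpa (chr7:35119093-35119292) and the hormone half-site AGGTCA, which reads TGACCT on the strand shown, of Elovl6 (chr3:129532186-129532385).
Adipoq: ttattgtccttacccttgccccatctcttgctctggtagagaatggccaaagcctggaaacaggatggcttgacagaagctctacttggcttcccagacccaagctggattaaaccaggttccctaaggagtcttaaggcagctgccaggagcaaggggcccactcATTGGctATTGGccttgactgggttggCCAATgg
Lep: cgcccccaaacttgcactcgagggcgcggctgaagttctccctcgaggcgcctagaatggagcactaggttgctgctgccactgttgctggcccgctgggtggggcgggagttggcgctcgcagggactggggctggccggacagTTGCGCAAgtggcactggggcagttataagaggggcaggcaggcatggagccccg
Cebpa: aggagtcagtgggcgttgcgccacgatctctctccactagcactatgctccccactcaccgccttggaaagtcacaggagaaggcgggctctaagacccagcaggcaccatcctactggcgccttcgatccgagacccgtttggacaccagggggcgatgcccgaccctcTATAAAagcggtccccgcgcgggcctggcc
Elovl6: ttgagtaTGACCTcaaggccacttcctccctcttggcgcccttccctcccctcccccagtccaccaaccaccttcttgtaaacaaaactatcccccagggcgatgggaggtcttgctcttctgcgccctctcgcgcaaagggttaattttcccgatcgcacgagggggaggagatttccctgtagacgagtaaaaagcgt
Counted from the gene start, the Lep palindrome began at -55, the Cebpa TATAAA at -30 and the Elovl6 half-site at -193. Adipoq had CCAAT matches at -34, -27 and -7, of which those at -34 and -27 read ATTGG on the strand shown. A match is a run of letters and not a shown binding site.

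Across genes, the 16 arrays were compared without a test, since the groups were formed from measured values of the same arrays. A gene was counted as higher or lower in fat-rich arrays where the ranges of the 8 and the 8 did not overlap and the mean difference was at least 1 on the log2 scale, a 2-fold difference. Of 18482 genes well above background on at least a 0.5 share of the arrays of either group, 114 were higher (0.617%) and 14 lower (0.0757%). The 114 include 4 score genes, and 96 of them have a gene symbol. Without the 2-fold limit, 206 genes were higher (1.11%) and 166 lower (0.898%) without overlap. The median difference of all 18482 genes was -0.03.

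Among genes with a symbol that had no overlap, score genes left aside, Mup1 differed most, by 3.9. It encodes a major urinary protein, a lipocalin made in large amounts by liver, and its near-identical paralogs can share probes, so the member is uncertain. Mup1 lay between 3.74 and 6.06 (median 4.17) on fat-rich arrays and between -0.08 and 3.40 (median 0.08) on fat-poor arrays, where only 3 of 8 spots were well above background. Ces1f, a carboxylesterase of liver and fat, had a mean log2 ratio of 4.15 ± 0.41 on fat-rich and 0.79 ± 0.61 on fat-poor arrays (SD, n = 8 each), a difference of 3.36. Prkar2b, the protein kinase A regulatory subunit that prevails in adipocytes and neurons, averaged 0.94 ± 0.76 on fat-rich and -2.39 ± 0.56 on fat-poor arrays, a difference of 3.32. By this choice of genes, every fat-rich array lay above every fat-poor array for each of them.

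Scd1, the delta-9 desaturase that makes oleate, lay between 3.29 and 4.70 (median 3.93) on fat-rich arrays and between -1.14 and 2.53 (median 0.66) on fat-poor arrays. Elovl6, which elongates palmitate to stearate, lay between -0.63 and 3.67 (median 1.78) on fat-rich arrays and between -2.12 and -0.75 (median -1.77) on fat-poor arrays. Both were among the genes chosen for having no overlap, with an SD among fat-rich arrays of 1.40 for Elovl6 and 0.48 for Scd1. Hp, haptoglobin, an acute phase protein that adipocytes also make, averaged 3.99 ± 0.25 on fat-rich and 0.99 ± 1.69 on fat-poor arrays. Pygl, the liver type glycogen phosphorylase, averaged 3.93 ± 0.97 on fat-rich and 0.98 ± 0.58 on fat-poor arrays.

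Cebpa, the transcription factor C/EBP-alpha that with PPAR-gamma sets adipocyte identity, had log2 ratios between 1.70 and 3.78 (median 2.95) on fat-rich arrays and between -0.14 and 0.67 (median 0.35) on fat-poor arrays. Its second probe showed a difference of 1.19, against 2.55 for the probe used. Cdo1, the cysteine dioxygenase of the taurine pathway, differed by 2.80, Clstn3, a calsyntenin, by 3.15, and Acp5, the tartrate-resistant phosphatase of macrophages and osteoclasts, by 2.60. Ptger3, the prostaglandin E2 receptor EP3 that lowers cyclic AMP in adipocytes, differed by 2.98, and Ntrk2, the BDNF receptor TrkB, by 2.92. Ptger3 was well above background on only 2 of 8 fat-poor arrays, so its difference is set against a probe mostly at the floor. The second probes of Ptger3 and Ntrk2, dim on most arrays, gave 0.42 and 0.05. Tmem45b differed by 2.89 and Aldh1a7, an aldehyde dehydrogenase, by 2.85.

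**Figure D2:**
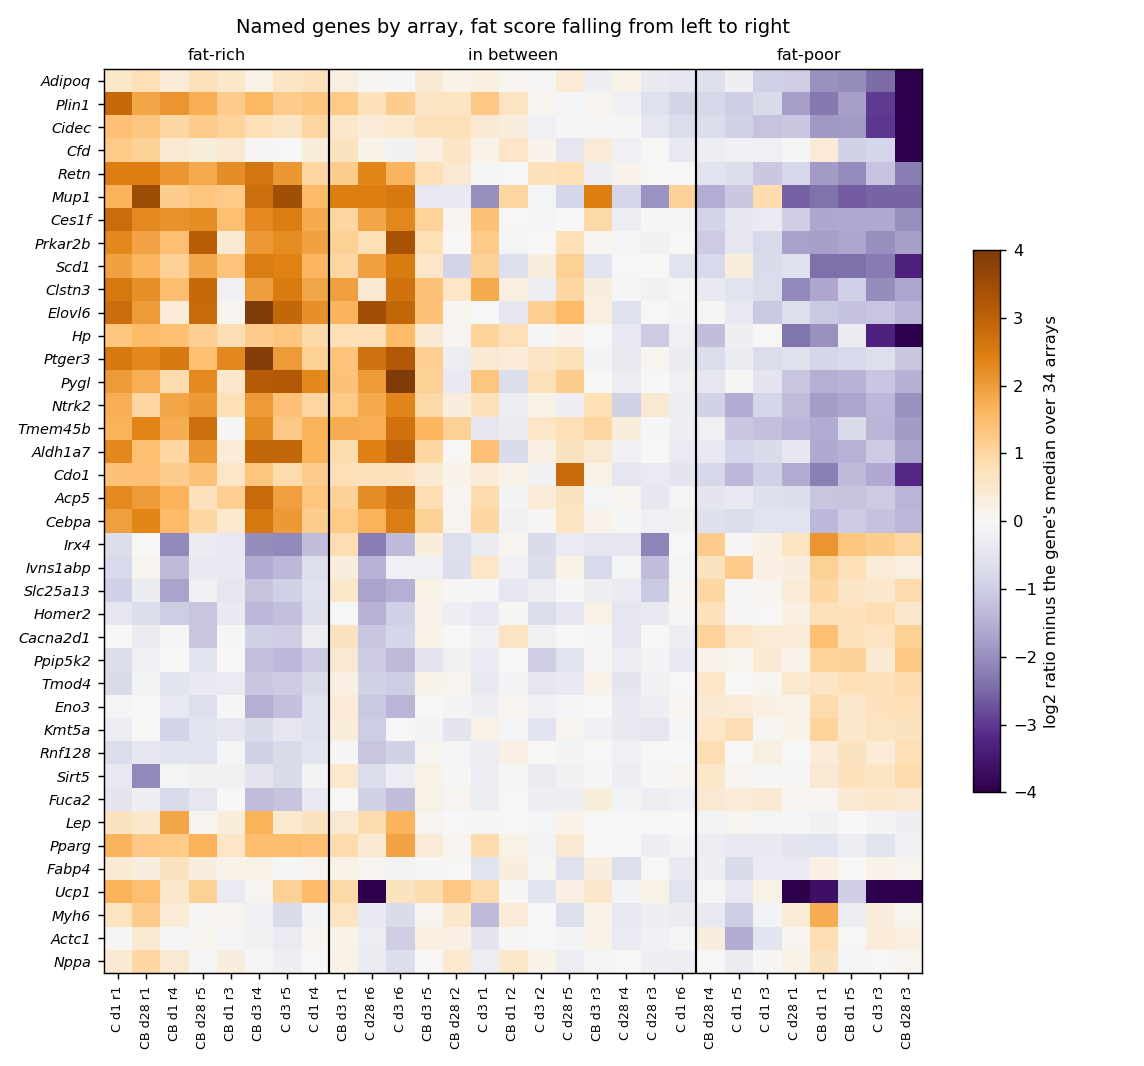
Each row is a named gene and each column an array, fat score falling from left to right within fat-rich, in-between and fat-poor arrays. Colour gives the log2 ratio minus the gene's median over 34 arrays and is cut off at 4 and -4. The 15 genes below the score genes are mostly orange on fat-rich and mostly purple on fat-poor arrays, and the 12 genes that start with Irx4 mostly show the opposite, with smaller differences.

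White adipocyte identity genes were mostly higher in fat-rich arrays. Of 18 list members tested, 15 differences were above 0, 10 had no overlap, and the median difference was 1.31, against -0.03 for all genes. Of all genes tested, 43.3% had a difference above 0 and 1.11% were higher without overlap. Pparg, the master regulator of adipocyte differentiation, lay between 1.53 and 2.62 (median 2.39) on fat-rich arrays and between 0.38 and 0.76 (median 0.57) on fat-poor arrays, a difference of 1.72. Slc7a10, an amino acid carrier of white adipocytes, differed by 2.50, and Car3, the carbonic anhydrase abundant in fat, by 2.41. Car3 lay between 5.34 and 6.4 on fat-rich arrays and between -0.01 and 4.94 on fat-poor arrays.

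Lep, which encodes leptin, was low everywhere. It was well above background on 7 of 8 fat-rich arrays and on 0 of 8 fat-poor arrays, so it has only a bound there. Its mean was at least 1.70-fold higher in fat-rich arrays by that bound. Among fat-rich arrays, Lep reached 1.98 on carbon black day 1 replicate 4 and 1.80 on carbon black day 3 replicate 4, and was 0.21 on carbon black day 28 replicate 5, all with a fat score above 1. Among fat-rich arrays the order by Lep was thus not the order by fat score. Lgals12, galectin-12 of the fat droplet, was also at background on all fat-poor arrays and at least 3.61-fold higher in fat-rich arrays.

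Some lipid genes of adipocytes overlapped between the groups. Fabp4, the fatty acid binding protein of adipocytes and of capillary endothelium, averaged 6.33 ± 0.22 on fat-rich and 5.93 ± 0.33 on fat-poor arrays (SD, n = 8 each), and the groups overlapped. The other 2 Fabp4 probes, both above background on all 16 arrays, showed differences of 0.13 and 1.75, so the probes of this gene disagreed. Lpl, lipoprotein lipase, and Cd36, the fatty acid translocase, differed by -0.47 and -0.37.

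In de novo lipogenesis, all 13 members had a difference above 0, with a median of 1.24, and 5 had no overlap, against 43.3% and 1.11% of all genes. Fasn, fatty acid synthase, differed by 3.65, with 1.33 to 4.70 (median 3.21) on fat-rich arrays and -2.01 to 1.41 (median -0.65) on fat-poor arrays, an overlap of 1 pair of edges. Slc25a1, the mitochondrial citrate carrier that feeds the pathway, differed by 2.18, Pcx, pyruvate carboxylase, by 1.77, and Acly, ATP citrate lyase, by 1.74. Srebf1, the sterol regulatory factor that drives these genes, differed by 1.24 with overlap. The smallest differences were 0.43 for Acaca, acetyl-CoA carboxylase 1, and 0.43 for Mlxipl, the carbohydrate response factor ChREBP.

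Lists of triglyceride handling had smaller medians. Among all genes tested, 43.3% were above 0, and 1.11% were higher and 0.898% lower without overlap. In triglyceride synthesis, 9 of 10 members were above 0 with a median of 0.28, and Mogat1 (1.36) and Dgat1 (1.25), which add acyl chains to glycerides, had no overlap. In the droplet and lipolysis list, 10 of 15 tested members were above 0, with a median of 0.21. Pnpla3, Bscl2 (seipin) and Lipe, the hormone-sensitive lipase, were higher without overlap by 2.12, 1.09 and 1.01. Plin3 was lower without overlap by a difference of -0.57, and Plin5, the perilipin of muscle mitochondria, differed by -0.50. Of the secreted factors, 10 of 12 were above 0 with a median of 0.96, led by Rbp4, retinol binding protein (2.48, with overlap), and Nrg4, neuregulin 4 (2.19, without). Insulin and beta-adrenergic signalling genes had a median of -0.06, with 5 of 11 above 0, and adipocyte precursor genes a median of 0.26 with 12 of 13 above 0 and none without overlap.

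**Figure D3:**
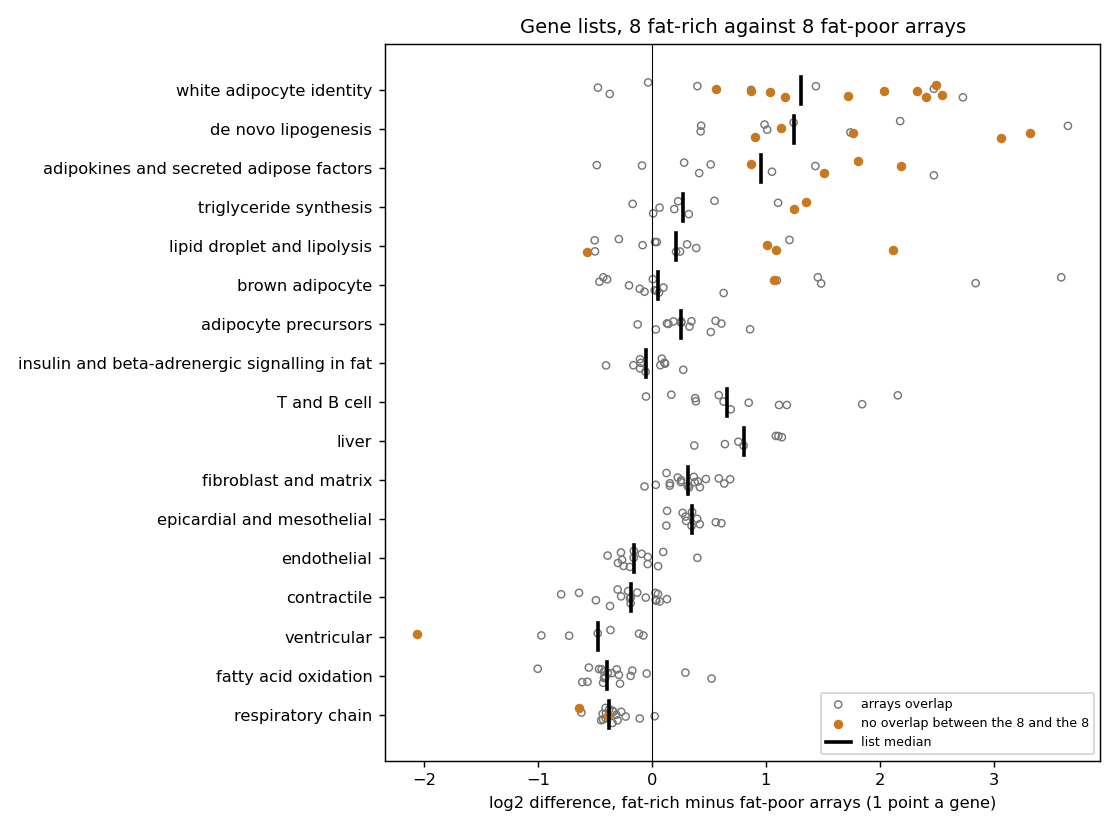
Log2 difference of each tested gene (1 point a gene, fat-rich minus fat-poor arrays) by gene list, with the list median as a bar and filled points where the 8 and 8 arrays did not overlap. White adipocyte identity and de novo lipogenesis have medians of 1.31 and 1.24, while fatty acid oxidation and respiratory chain lie at -0.40 and -0.38.

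Of 18 brown adipocyte genes, 12 were above 0 and the median difference was 0.05, against 43.3% and -0.03 for all genes. Ucp1, uncoupling protein 1, had a mean difference of 3.59, yet its groups overlapped. It lay between 5.32 and 7.32 (median 6.76) on fat-rich arrays and between 0.05 and 5.85 (median 3.34) on fat-poor arrays. Among fat-poor arrays, 4 had Ucp1 values between 4.66 and 5.85, carbon black day 1 replicate 1 had 2.02, and 3 lay at the floor. Those 3, control day 28 replicate 1, control day 3 replicate 3 and carbon black day 28 replicate 3, had log2 ratios of 0.05, 0.08 and 0.05.

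Ucp1 was at the floor on some arrays that held Adipoq transcripts, but carbon black day 28 replicate 3, also at the floor, had Adipoq at -0.23. On control day 28 replicate 1, Adipoq was still 4.27 while Ucp1 was 0.05. The same split was seen outside the groups, on control day 28 replicate 6, where the fat score was 0.73, Adipoq 5.34 and Ucp1 0.55. The other 12 arrays in between had Ucp1 values of 5.12 or more. Over all 13 in-between arrays, control day 28 replicate 6 included, the slope of Ucp1 on the fat score was -0.42 ± 1.1 (SE).

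Other brown fat genes differed in size. Slc27a2, a very long chain acyl-CoA synthetase, differed by 2.84, Dio2, the deiodinase that activates thyroid hormone, by 1.49, and Elovl3, the elongase of brown fat, by 1.46, all with overlap. Slc27a2 was well above background on 4 of 8 and Elovl3 on 2 of 8 fat-poor arrays, so part of their fat-poor values are floors. Slc36a2, an amino acid carrier of brown fat, was higher without overlap, at 4.51 to 5.29 on fat-rich and 2.58 to 4.05 on fat-poor arrays. Cidea, Cox8b and Cox7a1 differed by 0.04, 0.02 and -0.11. Cox8b and Cox7a1 are also in the respiratory chain list, since heart muscle expresses them. Ppargc1a and Prdm16, transcriptional regulators of the brown programme, differed by -0.39 and -0.43.

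**Figure D4:**
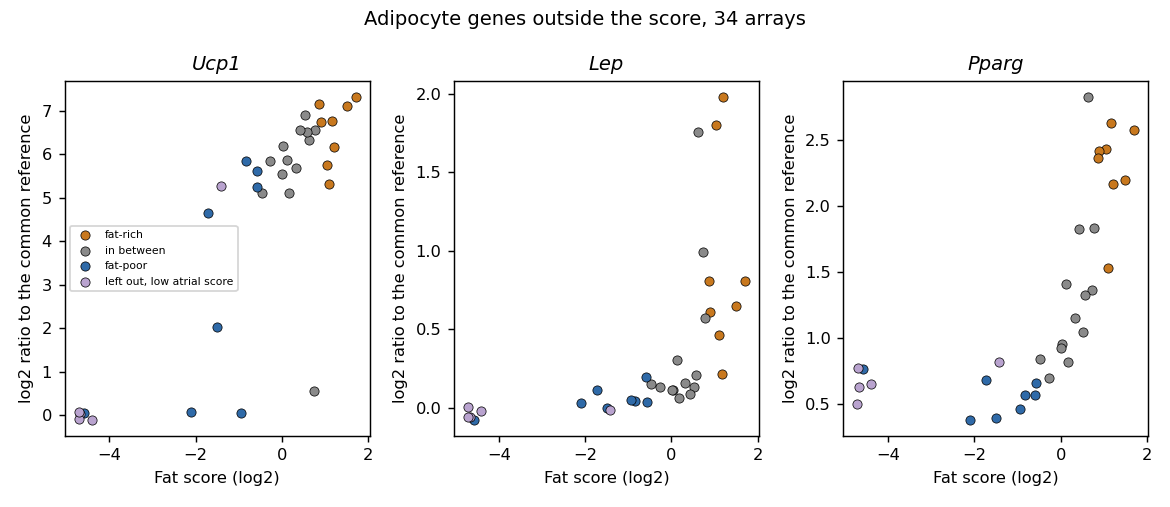
Log2 ratio of Ucp1, Lep and Pparg (y axes) against the fat score (x axis) on 34 arrays, coloured by class. Ucp1 lies between 5.32 and 7.32 on fat-rich arrays and near 0 on 3 fat-poor arrays, with 1 in-between array at 0.55, while Pparg lies at 1.53 or more on fat-rich and at 0.76 or less on fat-poor arrays.

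Further genes were picked from the 114 after their values were seen. Tkt, transketolase, and G6pdx, glucose-6-phosphate dehydrogenase, both enzymes of the pentose phosphate pathway, differed by 2.37 and 1.77. Tkt averaged 0.26 on fat-rich and -2.11 on fat-poor arrays. Pfkfb3, which makes the activator of phosphofructokinase, differed by 2.24, Klb, the beta-klotho co-receptor of FGF21, by 1.87, and Nnmt, nicotinamide N-methyltransferase, by 2.0. Igf1, insulin-like growth factor 1, and Esr1, the estrogen receptor alpha, differed by 1.52 and 1.49. Genes of immune cells among them were H2-DMb1 (1.14), Cd52 (1.36) and Ctss (1.06), cathepsin S. Cd1d1, which presents lipid antigens, differed by 2.30. It was the 1 gene above 0 of 3 tested in the thymus list, whose median was -0.05. In the lists, the interferon-responsive gene Ifi27 differed by 2.15 without overlap, while the list median was 0.09.

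The genes lower in fat-rich arrays were few and their differences smaller. Irx4, the ventricle-specific Iroquois factor, had log2 ratios between -0.20 and 1.89 (median 0.91) on fat-rich arrays and between 1.91 and 3.99 (median 2.95) on fat-poor arrays, a difference of -2.06 and a gap of 1.89 to 1.91 between the groups. Ivns1abp, a kelch protein, differed by -1.41, Slc25a13, the mitochondrial aspartate-glutamate carrier, by -1.34, and Homer2, a synaptic and muscle scaffold, by -1.33. Cacna2d1, the alpha-2-delta subunit of the L-type calcium channel, differed by -1.25, Ppip5k2 by -1.19, Tmod4, a tropomodulin of striated muscle, by -1.14, Eno3, muscle enolase, by -1.07, and Kmt5a, a histone H4 methyltransferase, by -1.05. Rnf128, Sirt5, the mitochondrial desuccinylase, and Fuca2 had no overlap but stayed under 2-fold, at -0.97, -0.94 and -0.94. The second probes of Ivns1abp, Homer2, Cacna2d1, Ppip5k2 and Kmt5a were lower as well, and that of Fuca2, dim on most arrays, differed by -0.09.

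All 7 ventricular genes were below 0, with a median of -0.48, but the Irx4 difference was the 1 without overlap. Myl2, the ventricular regulatory light chain, was 1.61 on control day 3 replicate 5 and 2.48 on carbon black day 1 replicate 4, both fat-rich. It was 4.65 or more on the other fat-rich arrays, against 4.29 to 5.82 on fat-poor arrays. Its mean thus differed by -0.48, while its median was higher on fat-rich arrays, 5.35 against 4.95. Pln, phospholamban, the brake on the calcium pump, lay between 5.70 and 7.48 (median 7.06) on fat-rich and between 7.45 and 8.42 (median 7.97) on fat-poor arrays. The calcium handling list had a median of -0.52, with 3 of 9 genes above 0, and the contractile list -0.19, with 6 of 18. Among all genes tested, 43.3% were above 0 and 0.898% were lower without overlap.

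Genes of mitochondrial fuel use lay below the median of all genes. Among all genes tested, 43.3% were above 0 and 0.898% were lower without overlap. Of 20 fatty acid oxidation genes, 2 were above 0 and the median was -0.40; Ehhadh, the peroxisomal bifunctional enzyme, was the highest of the list at 0.52 and Acot2, a mitochondrial thioesterase, the lowest at -1.0. Of 20 respiratory chain genes, 1 was above 0 and the median was -0.38, with Uqcrc1 (-0.64) and Atp5b (-0.39) lower without overlap. With control mice alone, 3 fat-rich against 4 fat-poor arrays, the medians were -0.07 and -0.17. Glycolysis genes had a median of -0.10, with 4 of 15 above 0.

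Markers of other cell types were counted beside these results, where 43.3% of all genes tested were above 0. T and B cell genes had a median difference of 0.66, with 11 of 12 above 0 and none without overlap. The mean T and B cell score ran between -0.08 and 1.49 on fat-rich and between -0.26 and 0.20 on fat-poor arrays. Among fat-rich arrays, it was -0.08 to 0.575 on the 3 control and 0.22 to 1.49 on the 5 carbon black arrays. The highest score, 2.61, was on an array in between, control day 28 replicate 6. Ms4a1, the B cell antigen CD20, was above -1 on 5 of 8 fat-rich arrays, 0 of 8 fat-poor arrays and 2 of 13 arrays in between. Its fat-rich values ran up to 1.74, and the 3 other fat-rich arrays, between -2.80 and -2.60, lay in the range of the fat-poor arrays, -3.25 to -1.99. The part of lymphoid cells in the genes listed above was not tested.

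Liver transcripts were present on some arrays of each group. Alb, albumin, was above 1 on 4 of 8 fat-rich arrays and 2 of 8 fat-poor arrays, and reached 4.95 on fat-rich and 4.64 on fat-poor arrays. The liver list had a median of 0.80, with 7 of 7 above 0 and no gene without overlap, and its score ran between -0.05 and 3.08 on fat-rich and between -0.48 and 1.97 on fat-poor arrays. On the 4 fat-rich and 6 fat-poor arrays with Alb at 1 or less, Mup1, Ces1f and Hp differed by 4.19, 3.48 and 3.58. In that subset 201 genes were higher and 57 lower, and 100 of the 114 and 10 of the 14 were among them. Genes without overlap stay so in a subset of the same arrays. This sharing and the direction of the 3 differences were thus largely fixed in advance. The part of liver RNA in these genes was not tested.

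The acute phase list had 8 of 8 genes above 0, a median of 0.51 and 2 genes higher without overlap, Hp and Orm1. Among all genes tested, 43.3% were above 0 and 1.11% were higher without overlap. Macrophage, epicardial, nerve and airway lists were also higher in fat-rich arrays, with overlap for every gene tested. Of macrophage genes, 12 of 13 were above 0 with a median of 0.39, and the score ran between -0.21 and 0.35 on fat-rich and between -0.93 and 0.21 on fat-poor arrays. Epicardial and mesothelial genes were above 0 in 11 of 11 cases, with a median of 0.35 and scores of -1.31 to 1.1 on fat-rich and -0.37 to 0.28 on fat-poor arrays. Peripheral nerve genes were above 0 in 7 of 7 cases, with a median of 0.36, led by S100b (1.27), a glial calcium-binding protein. These scores ran between -0.13 and 0.82 on fat-rich and between -0.48 and 0.04 on fat-poor arrays. Of the airway list, 4 genes were tested and all 4 were above 0, with a median of 0.45. Airway scores ran between -0.07 and 2.31 on fat-rich and between -0.29 and 0.00 on fat-poor arrays. The highest airway score, 3.83, was on an array in between, control day 3 replicate 1. Endothelial genes had a median of -0.16, with 3 of 14 above 0. The part of these cell types in the other differences was not tested.

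Of the 14 slides, a possible batch, 5 held both a fat-rich and a fat-poor array. Genes without overlap must have the same direction within each of these pairs, so the pairs give only the size of their differences. Pparg differed by 1.59 to 2.17 over the slides, Scd1 by 1.83 to 4.32, and Irx4 by -2.78 to -0.62. The de novo lipogenesis median was 0.91 to 1.77 over the slides. The fatty acid oxidation median was -0.63 to -0.07, below 0 on each.

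The 13 arrays in between, which the comparison did not use, allowed a test. For each gene not in the score, limma fitted the slope of the log2 ratio on the fat score over these arrays, which spanned -0.48 to 0.77. Of 18135 genes, 0 passed a Benjamini-Hochberg adjusted p of 0.05, and the lowest adjusted p was 0.656. At an unadjusted p under 0.05, 372 slopes were above 0 (2.05%) and 426 below (2.35%). Of the 109 genes counted as higher that could be fitted, 107 had a slope above 0 and 88 an unadjusted p under 0.05, with a median slope of 0.95 log2 units per unit of score against -0.02 for all genes. With Agilent's processed log ratio in place of the authors' values, 74 of 108 had a slope above 0 and 9 an unadjusted p under 0.05. Of the 14 counted as lower, 10 had a slope below 0 and 0 reached an unadjusted p under 0.05.

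Among the named genes, Cebpa had a slope of 1.58 ± 0.40 (SE, 13 arrays, limma unadjusted p = 0.00128), and Hp a slope of 1.35 ± 0.31 (limma unadjusted p = 0.000623). Elovl6 had a slope of 2.06 ± 0.69 and Pparg a slope of 0.97 ± 0.31. The slope of Mup1, 1.58 ± 1.07, was within 1.5 SE of 0, and that of Irx4 was 0.19 ± 0.61. All 13 de novo lipogenesis genes had a slope above 0, 9 of them at an unadjusted p under 0.05, and so did 15 of 16 white adipocyte genes, 9 at that level. None of these passed adjustment over all genes.

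Some lists had the opposite direction here. Of 20 fatty acid oxidation genes, 19 had a slope above 0, with a median of 0.14, where the comparison had 2 of 20 above 0. The respiratory chain median slope was -0.04 with 9 of 20 above 0. Ventricular genes had 1 of 7 slopes above 0, with a median of -0.23 and none at an unadjusted p under 0.05. Of fibroblast and matrix genes, 17 of 18 were above 0 in the comparison, with a median of 0.32, while 0 of 18 slopes were above 0, with a median of -0.34.

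**Figure D5:**
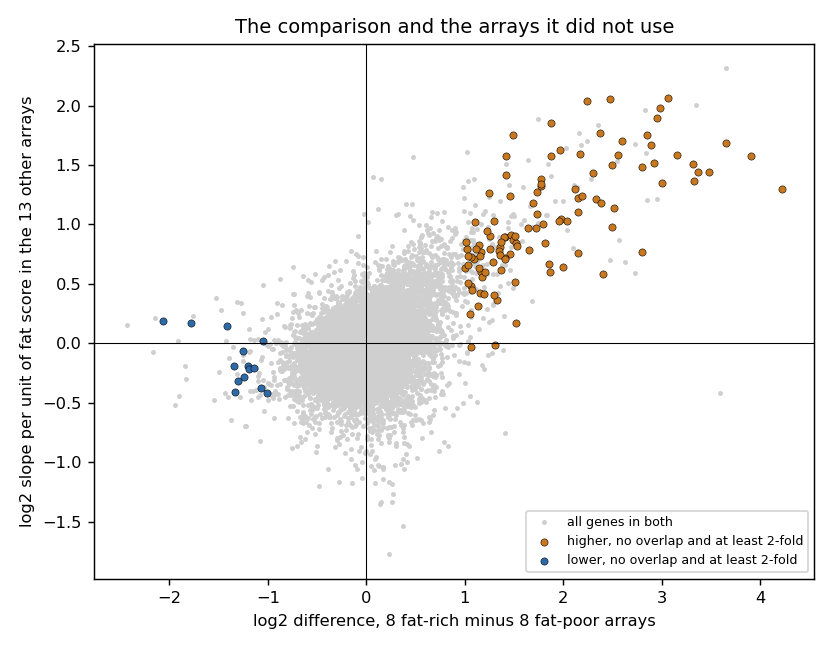
Slope per unit of fat score in the 13 arrays in between (y axis, log2) against the log2 difference of 8 fat-rich minus 8 fat-poor arrays (x axis), 1 point a gene. The genes counted as higher (orange) lie above a slope of 0 in 107 of 109 cases, while those counted as lower (blue) have slopes between -0.42 and 0.19.

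A difference in fat score by exposure was not detectable. The fat-rich group held 5 carbon black and 3 control arrays, and the fat-poor group 4 of each. Over the 29 arrays, the score averaged -0.01 ± 1.64 in carbon black (SD, n = 14) and 0.02 ± 0.94 in control hearts (SD, n = 15), a difference of -0.03 (two-sided permutation test within day, p = 0.953). Without carbon black day 28 replicate 3 the difference was 0.32 (permutation p = 0.414), the opposite sign. Within the 9 slides that held both, it was -0.40 (permutation p = 0.624).

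Nor did the score differ between days beyond its spread. It averaged 0.01 ± 1.2 on day 1 (SD, n = 10), 0.27 ± 0.95 on day 3 (SD, n = 9) and -0.23 ± 1.70 on day 28 (SD, n = 10). The 3 pairs of days differed by -0.24 for day 28 minus day 1, 0.26 for day 3 minus day 1 and -0.50 for day 28 minus day 3. Each had an adjusted p of 0.753 over the 3 pairs by two-sided permutation within exposure. These p-values do not show that the groups had equal fat.

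Promoter motifs were counted among the higher genes and among all genes. A RefSeq window of 300 bases, 250 before and 50 after the start, was found for 9400 of 18482 tested genes and for 71 of the 114 higher genes. On either strand, the half-site AGGTCA lay in the windows of 20 of the 71 (28.2%) and of 15.1% of all genes with a window. Among the lower genes it lay in 3 of 9 (33.3%). The paired element of peroxisome proliferator-activated receptors, AGGTCANAGGTCA, which contains the half-site, lay in 0 of the 71 and in 4 of all 9400, and TTGCGCAA in 0 of the 71 and 33 of all. TATAAA was present in 12.7% of the 71 and 9.9% of all, CCAAT in 39.4% and 42.9%, and GGGCGG in 59.2% and 66.4%.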

How the data were processed

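Heart RNA (Cy5) of 34 mice was hybridised with reference RNA (Cy3) on 2-colour Agilent arrays, which lay on 14 slides. The authors deposited log2 ratios in the series table. They matched loess-normalised ratios without background correction, computed here from the scanner files (r 0.996 to 0.998), with column medians between -0.055 and -0.034; which steps produced them is not given in the sources used here. Median spot and background intensities and Agilent's log10 ratio, background-subtracted and dye-normalised by Feature Extraction 10.1.1.1, come from the deposited array files, per the file headers. The main values are the authors' log2 ratios, averaged over spots of a probe. Of 41174 probes, 23374 had a gene symbol. For a gene with several probes, the probe of highest mean Cy5 signal over the 34 arrays was used, and the others are given where they disagree.

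The members and gene lists were chosen with earlier results of these data known. The fat-rich and fat-poor arrays were selected on measured values, so their comparison has no p-value. Slopes over the 13 arrays in between were tested with limma 3.58.1 in R 4.3.3, with Benjamini-Hochberg adjustment over all genes but the score genes, and checked on simulated data. Fat score by exposure and day was tested with 100000 permutations. Each array held the RNA of 1 mouse, per the design text. Bounds for genes not above background compare the mean of the bright group with the mean, over the arrays of the dim group, of the higher of the lowest signal well above background and the probe's own signal. Named genes were the 15 higher and 12 lower genes with a symbol, no overlap and the largest differences, the score genes, 7 fixed genes, and up to 4 members of largest difference in each described list; further list members and genes were named after their values were seen. Alternatives were other scalings, group sizes, subsets of arrays, fold limits and leaving out each array. The number of arrays limits the precision.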

Additional observations from a re-analysis of the deposited data

Results flagged for a closer look

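Within groups of 4 to 10 arrays, 158 sets of values were searched for 1 array far from the rest by Dixon's test, and 17 were flagged. The test's rate of about 1 in 20 by chance is for values not used to choose the arrays. Some sets, such as the fat score and Adipoq, helped choose the groups, and many sets share the same arrays. The 17 are thus listed for a closer look and are not compared with that rate. Carbon black day 28 replicate 3 stood apart among fat-poor arrays in the fat score (-4.58, nearest -2.10), Adipoq (-0.23, nearest 2.80), Cfd (1.5, nearest 5.44) and the smooth muscle score (-0.88, nearest -0.26). Control day 3 replicate 3 stood apart from the other control day 3 arrays with a fat score of -2.10, where the nearest was 0.17.

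Among fat-rich arrays, carbon black day 1 replicate 3 was lowest for Clstn3 (0.28, nearest 1.92) and Pparg (1.53, nearest 2.16), and carbon black day 28 replicate 1 was lowest for Sirt5 (0.25, nearest 1.58). Control day 3 replicate 5 had the highest airway score (2.31, nearest 0.92) and the lowest endothelial score (-0.57, nearest -0.14). Carbon black day 3 replicate 4 had the lowest fatty acid oxidation score (-0.41, nearest -0.18) and the lowest smooth muscle score (-1.10, nearest -0.22), and control day 1 replicate 4 the lowest epicardial score (-1.31, nearest 0.18).

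Among fat-poor arrays, control day 1 replicate 3 had the highest Mup1 value (3.40, nearest 1.43) and the highest liver score (1.97, nearest 0.55). Control day 1 replicate 5 had the highest T and B cell score (0.20, nearest -0.08) and the lowest endothelial score (-0.45, nearest -0.02). The causes of these values were not tested.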

How the results depend on the processing

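With median centring and no loess, 127 genes were higher and 0 lower, against 114 and 14, and the median of all genes was 0.08 against -0.03. The scanner values gave 134 and 11, with 113 and 8 shared, and Agilent's log ratio 168 and 21, with 85 and 8 shared. Of 39 named genes, 0 changed sign with the scanner values and 2 with Agilent's log ratio (Myh6 and Actc1). With 6 against 6 arrays the counts were 186 and 34, and with 10 against 10 they were 83 and 0. Carbon black arrays alone, 5 against 4, gave 312 and 127, and control arrays alone, 3 against 4, gave 200 and 50. Ranking with no array left out for low atrial score gave 224 and 140. Arrays with Alb at 1 or less, 4 against 6 and a subset added after seeing the data, gave 201 and 57. Ranges of fewer arrays overlap less often, so counts from groups of different size are not comparable. With a 1.5-fold limit, genes lower in fat-rich arrays numbered 79. Leaving out 1 array gave 107 to 144 higher and 12 to 39 lower genes, with 39 lower without control day 1 replicate 5 and 28 without carbon black day 28 replicate 1.

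Of 1008 list medians over 36 lists and 28 settings, 967 moved by less than the spread between arrays. Most of these settings left out 1 of the 16 arrays, which moves a median little, so much of this was fixed in advance. In 52 values, over 14 lists, the sign was the other one; 13 of these lists had a median between -0.20 and 0.20 at the start, and the other was the epicardial list (0.35), which was -0.16 with control arrays alone. The white adipocyte median was 1.80 with Agilent's log ratio, 1.05 with 10 against 10 arrays and 1.04 with Alb at 1 or less. With control arrays alone the brown adipocyte, fatty acid oxidation and respiratory chain medians were 0.45, -0.07 and -0.17, and with no array left out the respiratory chain median was -0.59. Genes whose slope passed adjustment numbered 6 upward with median centring, 1 upward with exposure and day as terms, and 48 upward and 15 downward with the 5 low-atrial arrays and an atrial term, against 0. At an unadjusted limma p under 0.05, 7215 slopes were above 0 and 8 below with median centring, against 372 and 426. With exposure and day as terms these numbers were 1331 and 1605, and with the low-atrial arrays 962 and 1123. Those 5 arrays had a median fat score of -4.67, far outside the range of the 13.

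The fat score of carbon black minus control was 0.39 over all 34 arrays and -0.18 to 0.32 with 1 array left out. Day 28 minus day 1 was 0.11 over all 34 arrays, 0.45 within slides and -0.43 to 0.25 with 1 array left out. No paired analysis was possible because replicate numbers were given in accession order and pair no mice; slides were used for pairs and as a block instead, and 0 slopes passed adjustment with the slide as a block. Causes of these changes were not tested.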
